A study of Mus musculus with 16 samples.

Results

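Acute-phase proteins are plasma proteins whose levels move with inflammation, and 10 of their genes were followed here in gonadal white adipose tissue (gWAT): Saa3, Saa1, Saa2, Lcn2, Hp, Orm1, Serpina3n, Lbp, C3 and Cp. They were chosen by gene symbol, and all 10 were found among the 19353 genes of the expression table. RNA was sequenced from gWAT of 16 male mice on the C57Bl6/J background, with 4 mice in each of 4 groups and 1 library per mouse. All mice carried the floxed Mboat7 allele. Mboat7 flox/flox mice served as controls, and Mboat7 ASKO mice (ASKO mice) also carried Cre recombinase under the adiponectin promoter/enhancer, which deletes Mboat7 in adipocytes and leaves the gene in the other cells of the tissue. Mboat7 encodes an enzyme that attaches a fatty acid to lysophosphatidylinositol. Either Teklad chow or the Research Diets D12492 high-fat diet (HFD) was given to both genotypes over 20 weeks. The tissue was taken after a fast of 4 h and perfusion with saline. Age was matched but is not given in the sources used here, and mice are numbered 0 to 3 within a group, as labelled, with values listed in that order. Values are FPKM (fragments per kilobase of transcript, scaled to the mapped fragments of the library), a level per length that allows genes to be compared within a mouse.

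Most acute-phase proteins are made by hepatocytes under the control of interleukin-6, interleukin-1 and tumor necrosis factor, which act through STAT3, C/EBP factors and NF-kappaB. Several of them are also made in fat: haptoglobin, lipocalin 2, serum amyloid A3 and complement C3 are known products of adipocytes or of cells around them. The names hide different tasks, since haptoglobin binds free haemoglobin, lipocalin 2 binds bacterial siderophores, serum amyloid A proteins ride on high-density lipoprotein, and ceruloplasmin oxidizes iron and carries copper.

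The levels of the 10 genes spread over a wide range. Hp led with a mean of 379.2 FPKM over the 16 mice, rank 194 of all genes of the table. C3 (mean 49.96 FPKM), Orm1 (48.98 FPKM), Serpina3n (25.73 FPKM), Cp (17.21 FPKM) and Lbp (9.32 FPKM) followed, and these 6 genes were above 0 in every mouse. Saa3 (8.12 FPKM), Saa2 (3.35 FPKM), Saa1 (1.88 FPKM) and Lcn2 (0.504 FPKM) were listed at 0 in most mice. Only the step from Hp to C3 stood clear of the spread between mice, since the lowest Hp value (217.8 FPKM) was above the highest C3 value (72.3 FPKM). C3 exceeded Orm1 in 9 of 16 mice and Orm1 exceeded Serpina3n in 11 of 16 mice, so the order within these pairs was not fixed. Hp alone made up between 58.8% and 75.6% of the summed FPKM of the 10 genes in each mouse.

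**Figure D1:**
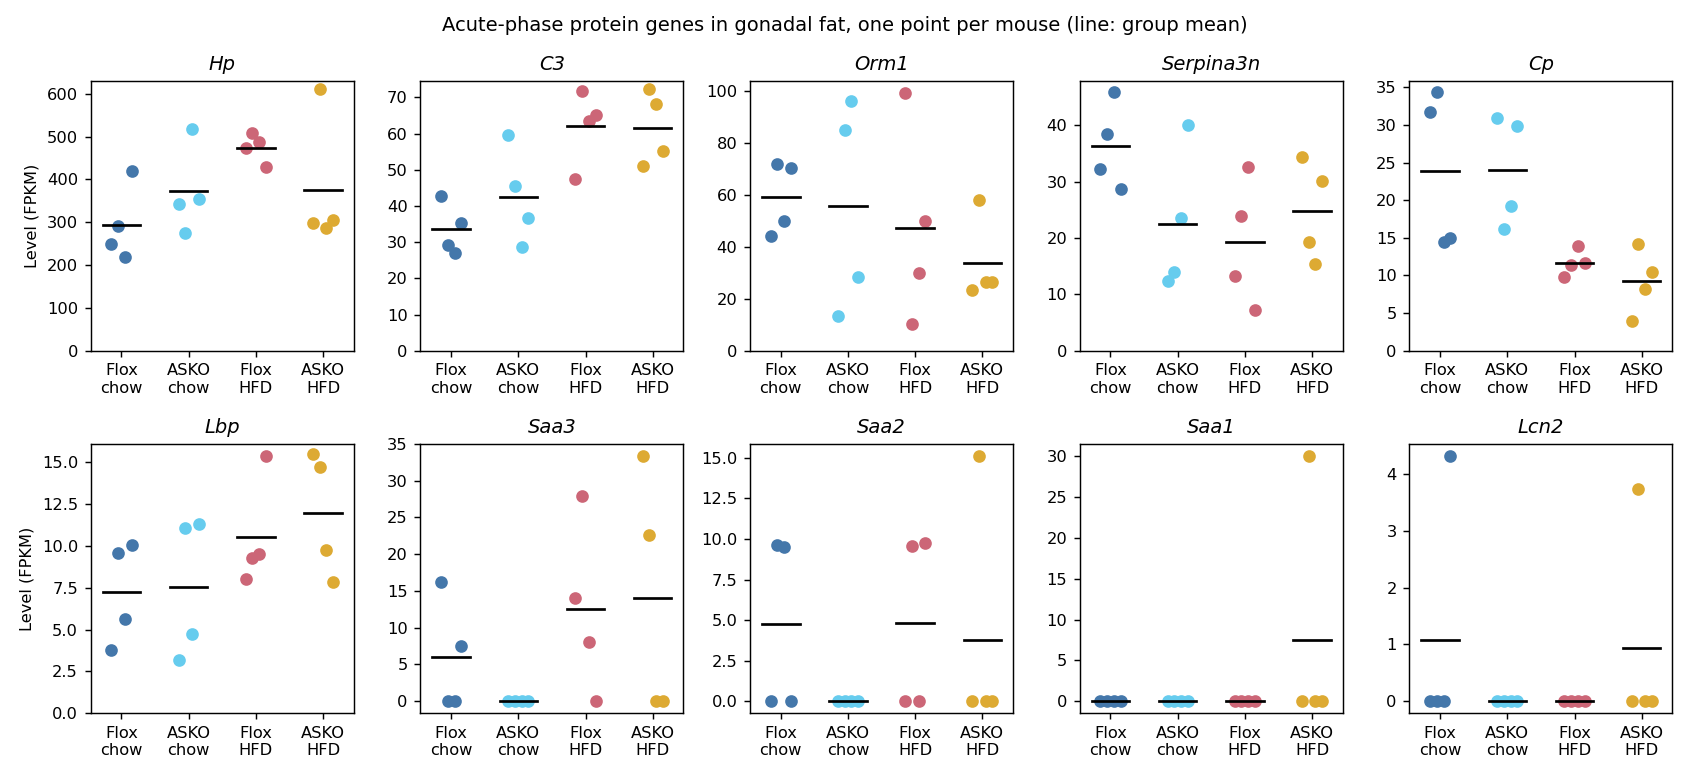
Level in FPKM (linear axis) of the 10 acute-phase protein genes in each of the 16 mice, with 1 point per mouse and a line at the mean of each group of 4. Cp is at most 14.2 FPKM in the mice on HFD and at least 14.5 FPKM in the mice on chow, C3 is mostly higher on HFD, and Saa1 and Lcn2 are at 0 in nearly every mouse.

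Values near 0 need care, because the table gives no fragment counts. The low FPKM values of a mouse lay closer to whole steps than an even spread would give, and the size of the step put the depth at an estimated 248528 to 424374 fragments per mouse on the scale of the table. Between 53.5% and 81.8% of the low values lay within 0.2 of a whole step, against 40% for an even spread, so the estimate is rough. On that estimate, 1 fragment was worth 7.79 FPKM for Saa3, 6.81 FPKM for Saa2 and 3.87 FPKM for Lcn2 in the median mouse. A listed 0 for these short transcripts therefore says that no fragment was assigned, not that the gene was silent. For Hp the estimate came to between 88.7 and 292.4 fragments per mouse and for C3 to between 46.5 and 149.3 fragments.

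Mboat7 itself, the deleted gene, was low. On chow it was listed at 2.42, 4.33, 0.902 and 4.99 FPKM in controls and at 0, 1.39, 0 and 2.89 FPKM in ASKO mice (two-sided exact permutation test on log2(FPKM + 1), p = 0.143). Under HFD Mboat7 stood at 0, 0, 2.15 and 1.61 FPKM in controls and 1.14, 0, 2.6 and 0 FPKM in ASKO mice (exact permutation test, p = 1). The groups overlapped on both diets, so genotype rests on the labels, and at this depth the deletion could not be seen on HFD. Markers of fat were high in every mouse, with 8 adipocyte markers summing to between 4643 and 25660 FPKM, while 7 of 8 markers of epididymis and testis were not listed and the other, Adam7, reached 0.736 FPKM in 1 mouse.

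Of the 10 genes, 8 passed the filter of at least 1 FPKM in at least 4 mice and were tested with limma among 13147 genes. Saa1 and Lcn2 did not pass. A gene was called when its Benjamini-Hochberg adjusted p was under 0.05 and its difference on the log2(FPKM + 1) scale exceeded 0.5, where the added 1 shrinks differences between low levels. Over both genotypes, 2 of the 8 genes were called between HFD and chow, C3 higher and Cp lower, where 7.53% of all tested genes were called (4.49% higher and 3.04% lower on HFD). In control mice alone no member was called by limma (2.91% of all tested genes were), and 4 had an unadjusted p under 0.05, as did 1869 (14.2%) of all 13147 tested genes. In Mboat7 ASKO mice alone no member was called either (3.43% of all genes), and 1, Cp, had an unadjusted p under 0.05, as did 1974 (15%) of all 13147 tested genes. In bulk tissue, fewer cells of a type and less RNA per cell cannot be told apart, which holds for every level given here.

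Haptoglobin (Hp) clears haemoglobin released from red cells and is among the abundant acute-phase transcripts of mouse fat. Hp maps to chromosome 8 of mm10 from 109575130 to 109579172. On chow its level was 248.7, 292.4, 217.8 and 419.7 FPKM in controls and 342.7, 275.6, 518.8 and 354.7 FPKM in ASKO mice. On HFD it was 472.4, 508.5, 487.0 and 429.0 FPKM in controls and 298.0, 610.2, 286.5 and 305.2 FPKM in ASKO mice. Every control mouse on HFD was above every control mouse on chow, while the Mboat7 ASKO groups overlapped, with 3 of the 4 mice on HFD between 286.5 and 305.2 FPKM and 1 mouse at the highest level of all 16. The diet difference in control mice was 0.73 on the log2 scale (standard error 0.28, limma adjusted p = 0.221), or 1.66-fold with a 95% interval of 1.1 to 2.5. In Mboat7 ASKO mice it was -0.03 (standard error 0.28, limma adjusted p = 0.983), and its sign turned under each of 3 other scalings of the libraries, where it lay between 0.10 and 0.21. The difference between these effects was -0.76 (standard error 0.4, 95% interval -1.6 to 0.08, limma adjusted p = 0.802), so a difference of the diet effect between genotypes was not established. Cd163, the macrophage receptor that takes up haptoglobin bound to haemoglobin, was between 12.997 and 24.7 FPKM on chow and between 18.2 and 93.1 FPKM on HFD, and it rose by 1.34 over both genotypes (standard error 0.28, limma adjusted p = 0.00548). Hmox1, the haem oxygenase that breaks down the haem so delivered, had a median of 0 FPKM on chow and 11.96 FPKM on HFD and rose by 2.55 (standard error 0.41, limma adjusted p = 0.000714). Only 3 mice on chow had Hmox1 above 0, so the gene passed the filter only through mice on HFD. Its call is therefore no independent result.

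Complement C3 is the protein on which all complement routes converge, and its fragments mark particles and call in leukocytes. C3 maps to chromosome 17 of mm10 from 57203970 to 57228136. On chow its level was 42.8, 29.1, 27.0 and 35.3 FPKM in controls and 59.5, 45.5, 28.8 and 36.6 FPKM in ASKO mice. On HFD it was 47.5, 71.8, 63.5 and 65.1 FPKM in controls and 51.0, 72.3, 68.2 and 55.3 FPKM in ASKO mice. The control groups did not overlap between diets, and among the Mboat7 ASKO mice a single mouse on chow, at 59.5 FPKM, lay above 2 mice on HFD. Over both genotypes the level rose from 38.1 ± 10.9 FPKM (SD, n = 8) on chow to 61.8 ± 9.47 FPKM (SD, n = 8) on HFD. The difference was 0.72 on the log2 scale (standard error 0.20, limma adjusted p = 0.0325), or 1.64-fold with a 95% interval of 1.23 to 2.19. The differences were 0.87 (standard error 0.28, limma adjusted p = 0.1195) in control mice and 0.56 (standard error 0.28, limma adjusted p = 0.3605) in Mboat7 ASKO mice. The call was a narrow one, and it was lost without the intensity trend (limma adjusted p = 0.0716). The adjusted p rose to between 0.0504 and 0.0703 when any 1 of 10 mice was left out: control mice 1, 2 or 3 on chow, Mboat7 ASKO mice 2 or 3 on chow, control mice 1, 2 or 3 on HFD, or Mboat7 ASKO mice 1 or 2 on HFD. The difference itself stayed between 0.63 and 0.80 over the 16 mice left out in turn.

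Ceruloplasmin (Cp) is a copper-carrying ferroxidase that lets iron leave cells and load onto transferrin. The annotation places Cp on chromosome 3 of mm10 from 19957054 to 20009145, and the table gives Cp and Hps3, a gene on the other strand, 1 shared interval that ends at 20035315. Only 108 exonic bases of Cp (1.13% of them) lie under exons of Hps3, which was between 0 and 7.999 FPKM. On chow Cp was at 31.7, 34.3, 14.5 and 14.97 FPKM in controls and at 31.0, 16.2, 19.3 and 29.8 FPKM in ASKO mice. On HFD it was at 9.81, 11.4, 13.9 and 11.6 FPKM in controls and at 3.93, 14.2, 8.25 and 10.4 FPKM in ASKO mice. Each of the 8 mice on HFD was below each of the 8 mice on chow, a separation shown by 2.22% of all tested genes, although the margin was only that between 14.2 and 14.5 FPKM. These were Mboat7 ASKO mouse 1 on HFD and control mouse 2 on chow, with an estimated 23.2 and 20.7 fragments of Cp. So few fragments cannot resolve that margin. The level fell from 23.97 ± 8.48 FPKM (SD, n = 8) on chow to 10.4 ± 3.29 FPKM (SD, n = 8) on HFD. The difference was -1.12 on the log2 scale (standard error 0.29, limma adjusted p = 0.02215), or 0.461-fold with a 95% interval of 0.303 to 0.701. In control mice it was -0.88 (standard error 0.40, limma adjusted p = 0.336) and in Mboat7 ASKO mice -1.36 (standard error 0.40, limma adjusted p = 0.0816). The call was lost without control mouse 1 on chow (adjusted p = 0.0527) and held when any other single mouse was left out, with the difference between -1.23 and -0.96.

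**Figure D2:**
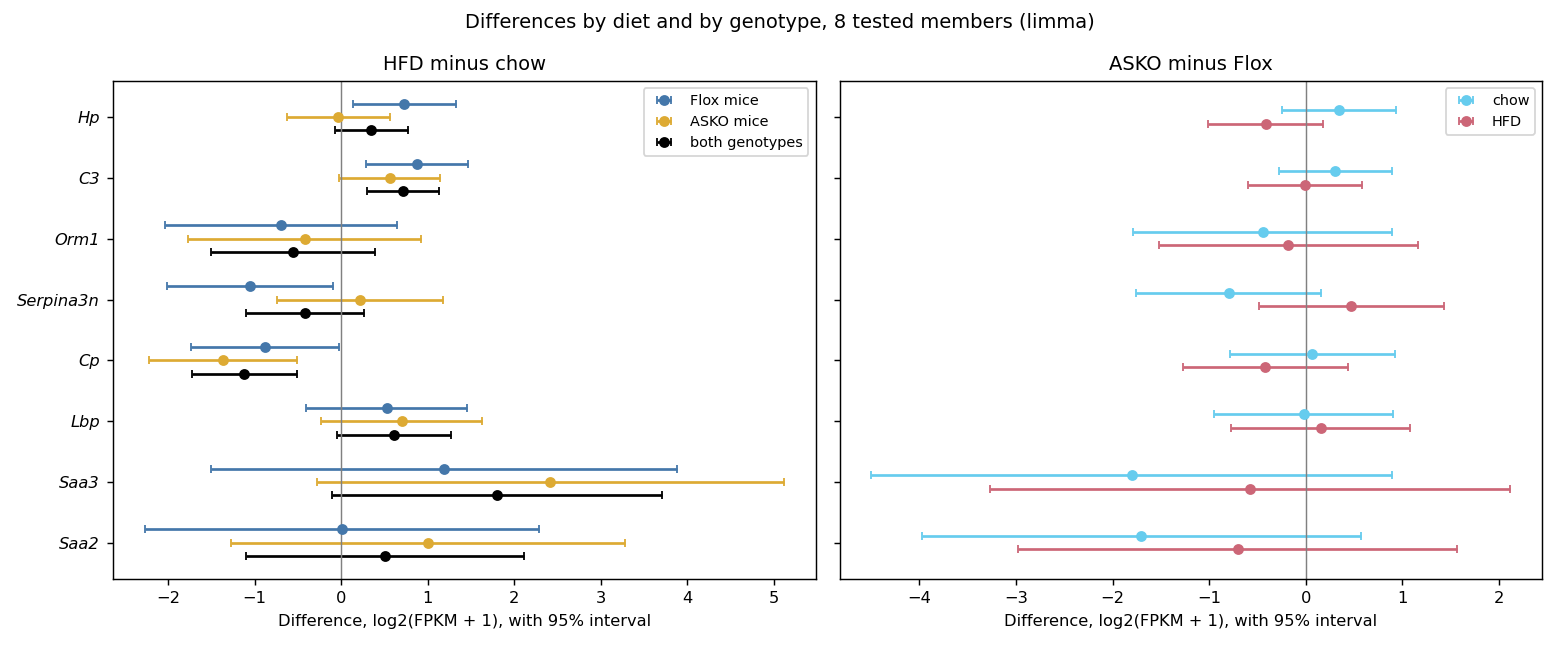
Difference in log2(FPKM + 1) of the 8 tested genes, HFD minus chow on the left and Mboat7 ASKO minus control (Flox) on the right, with points at the limma estimate and bars for its 95% interval. The black intervals of C3 (0.30 to 1.13) and Cp (-1.72 to -0.51) lie clear of 0, and the genotype intervals of all 8 genes cross it.

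The remaining tested genes showed no diet difference past the limits. Orm1, which encodes the lipocalin alpha-1-acid glycoprotein that carries drugs and lipids in plasma, maps to chromosome 4 of mm10 from 63344560 to 63348163 and was the most variable of the genes above 0 in every mouse. Its level was 44.3, 72.0, 49.9 and 70.5 FPKM in controls and 13.2, 85.1, 96.2 and 28.5 FPKM in ASKO mice on chow. On HFD it was 99.3, 10.1, 30.1 and 50.04 FPKM in controls and 23.4, 58.1, 26.3 and 26.5 FPKM in ASKO mice. All 4 groups overlapped, and the difference over both genotypes was -0.56 (95% interval -1.51 to 0.39, limma adjusted p = 0.569). Serpina3n, a secreted inhibitor of serine proteases, maps to chromosome 12 of mm10 from 104406729 to 104414329. It was at 32.2, 38.5, 46.0 and 28.7 FPKM in controls and at 12.4, 13.9, 23.6 and 40.02 FPKM in ASKO mice on chow, and at 13.2, 24.0, 32.7 and 7.24 FPKM in controls and 34.3, 19.3, 15.4 and 30.2 FPKM in ASKO mice on HFD. Its diet difference was -1.05 in control mice (standard error 0.46, limma adjusted p = 0.294) and 0.22 in Mboat7 ASKO mice (standard error 0.46, limma adjusted p = 0.884). The difference between these was 1.27 (standard error 0.64, 95% interval -0.09 to 2.63, limma adjusted p = 0.796), the largest genotype-by-diet estimate among the 6 genes above 0 in every mouse, and it did not pass. Lbp, which hands bacterial lipopolysaccharide to Cd14, maps to chromosome 2 of mm10 from 158306493 to 158332852. It ranged from 3.77 to 10.02 FPKM in controls and from 3.16 to 11.3 FPKM in ASKO mice on chow. On HFD its ranges were 8.01 to 15.3 FPKM and 7.82 to 15.5 FPKM. Its difference was 0.61 (95% interval -0.05 to 1.27, limma adjusted p = 0.304).

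In Mboat7 ASKO mice, Cp was the only member whose diet groups did not overlap (9.6% of all tested genes did not), and in control mice Hp, C3 and Cp did not overlap (8.34% of all genes). Over the 8 tested genes the median diet difference was 0.43 over both genotypes, against 0.01 over all genes, with 5 genes higher and 3 lower on HFD. Without Saa2 and Saa3, whose fitted differences rest on mice at 0, the median over the other 6 genes was -0.04. Over both genotypes, the 95% interval of every tested member apart from C3 and Cp crossed 0. In control mice alone, the intervals of Hp (0.13 to 1.32) and Serpina3n (-2.02 to -0.09) also lay clear of 0, as did those of C3 and Cp. In Mboat7 ASKO mice alone only that of Cp did. These intervals are not adjusted for the number of genes.

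The serum amyloid A genes lie side by side on chromosome 7 of mm10, Saa3 from 46711998 to 46715700, Saa1 from 46740497 to 46742980 and Saa2 from 46751790 to 46754313. Saa3 is the form known from adipose tissue and macrophages, while Saa1 and Saa2 are the plasma forms of the liver. Saa1 and Saa2 could exchange reads, since 95.1% of their coding bases are identical, and Saa3 is more distant (75.9% identical to Saa1). To show how few bases tell the plasma forms apart, the first 120 coding bases of both are printed here from the GENCODE transcripts, with the 5 differing bases in capitals.
Saa1: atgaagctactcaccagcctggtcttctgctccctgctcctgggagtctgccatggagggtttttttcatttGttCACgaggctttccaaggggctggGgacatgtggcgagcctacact
Saa2: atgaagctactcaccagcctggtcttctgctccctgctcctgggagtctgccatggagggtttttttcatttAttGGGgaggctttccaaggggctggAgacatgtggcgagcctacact
Of all 50-base stretches of the Saa1 transcript, 13.2% occur unchanged in Saa2, so a read from such a stretch could belong to either.

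Saa3 was at 16.3, 0, 0 and 7.54 FPKM in control mice on chow and listed at 0 in all 4 Mboat7 ASKO mice on chow. On HFD it was at 14.0, 27.98, 8.10 and 0 FPKM in controls and at 33.4, 22.6, 0 and 0 FPKM in ASKO mice. It was therefore above 0 in 2 of 8 mice on chow and 5 of 8 on HFD, with the highest value standing for an estimated 4.51 fragments. The difference over both genotypes did not pass (limma adjusted p = 0.293), and no fold is given against a group at 0.

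Saa2 was above 0 in 5 mice: control mice 1 and 2 on chow (9.65 and 9.49 FPKM), control mice 1 and 3 on HFD (9.56 and 9.77 FPKM) and Mboat7 ASKO mouse 1 on HFD (15.1 FPKM). The first 4 of these values stand for an estimated 1.22 to 1.41 fragments each. Saa1 was above 0 only in Mboat7 ASKO mouse 1 on HFD, at 30.0 FPKM. The diet difference of Saa2 did not pass (limma adjusted p = 0.807).

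Hepatocyte transcripts moved with Saa2. The summed level of 8 hepatocyte markers (Alb, Apoa1, Apoa2, Ttr, Ahsg, Apoc3, Fgb and Serpina1c) ranged from 12.1 to 677.8 FPKM between mice, from 56.8 to 416.2 FPKM in controls and 25.8 to 589.4 FPKM in ASKO mice on chow, and from 23.2 to 490.0 FPKM and 12.1 to 677.8 FPKM on HFD. None of the 8 markers was at 0 in every mouse and none was called in any comparison. The 5 mice with Saa2 above 0 had sums between 297.3 and 677.8 FPKM and were among the 6 highest, while 10 of the 11 mice with Saa2 at 0 had sums of at most 164.5 FPKM. The exception was Mboat7 ASKO mouse 0 on chow, with a sum of 589.4 FPKM and Saa2 and Saa1 at 0. The mouse with the highest sum, Mboat7 ASKO mouse 1 on HFD, was also the mouse with Saa1, the highest Saa2 and the highest Hp. After group means were removed, the Pearson correlation with the log2 hepatocyte sum over 16 mice was 0.79 for Saa2, 0.28 for Hp and 0.02 for Saa3, values that share the same libraries and scaling. Whether RNA of liver origin reached these fat samples was not tested.

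**Figure D3:**
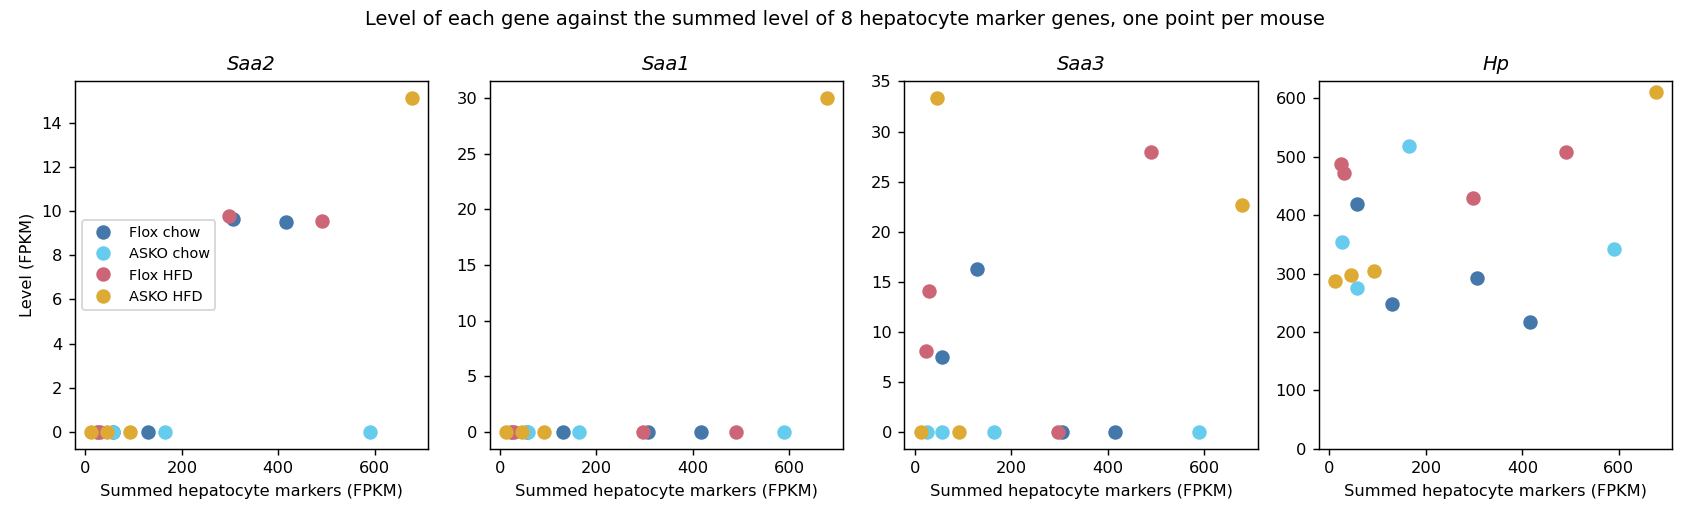
Level in FPKM of Saa2, Saa1, Saa3 and Hp (vertical axes, linear) against the summed FPKM of 8 hepatocyte marker genes, with 1 point per mouse colored by group. The 5 mice with Saa2 above 0 lie at sums of 297.3 FPKM or more, 1 mouse at 589.4 FPKM has no Saa2, and the 7 mice with Saa3 above 0 lie on both sides.

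Without the 5 mice in which Alb reached 100 FPKM, an exclusion chosen after the values were seen, neither C3 (difference 0.64, limma adjusted p = 0.211) nor Cp (difference -1.26, limma adjusted p = 0.0900) passed, and the fit then rested on 11 mice. Lcn2, on chromosome 2 of mm10 from 32384633 to 32387797, was above 0 in 2 mice only, at 4.32 FPKM in control mouse 3 on chow and 3.75 FPKM in Mboat7 ASKO mouse 1 on HFD, an estimated 1.22 and 1.12 fragments. Neutrophils, which store lipocalin 2, left little trace. Of 10 neutrophil markers, 6 (Retnlg, Ly6g, Camp, Ngp, Ltf and Mpo) were not listed. The other 4 summed to at most 8.49 FPKM, in control mouse 0 on HFD, where Lcn2 was at 0. In the 2 mice with Lcn2 the sum was 8.18 FPKM (control mouse 3 on chow) and 1.08 FPKM (Mboat7 ASKO mouse 1 on HFD).

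Genotype gave no member past the limits. On HFD no member was called by limma between Mboat7 ASKO and control mice, against 0.00761% of all tested genes (1 gene, Cdk20, named after its value was seen), and no member had groups without overlap, against 3.38% of all genes. On chow no member was called, against 0.00761% of all tested genes (1 gene), and again no member had groups without overlap, against 2.19% of all genes. No member reached an unadjusted p under 0.05 in either comparison, while 677 and 631 of all tested genes did. The widest bounds among the 6 genes above 0 in every mouse belonged to Orm1, with a difference of -0.18 on HFD (95% interval -1.52 to 1.16). The narrowest belonged to C3, with -0.01 on HFD (95% interval -0.59 to 0.58), a value whose sign turned under other scalings, and 0.31 on chow (95% interval -0.28 to 0.90). Hp differed by -0.41 on HFD (95% interval -1.01 to 0.18) and by 0.35 on chow (95% interval -0.25 to 0.94). Serpina3n differed by -0.80 on chow (95% interval -1.76 to 0.16) and 0.47 on HFD (95% interval -0.49 to 1.44). The limma adjusted p of the members lay between 0.983 and 1 in both comparisons, and equal levels were not shown. For the genotype-by-diet interaction, limma called 0.0% of all tested genes (827 had an unadjusted p under 0.05) and no member, none of which had an unadjusted p under 0.05.

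The genes around C3 moved in opposite directions with diet. Of 17 tested genes of the complement list, 6 rose on HFD over both genotypes (C3, C3ar1, C5ar1, C1qa, C1qb and C1qc) and 2 fell (Cfd and C2). C3ar1, the receptor of the C3a fragment, was between 0.615 and 3.78 FPKM on chow and between 10.7 and 32.2 FPKM on HFD, a rise of 3.06 (standard error 0.28, limma adjusted p = 2.34e-06). The integrin chains that bind the iC3b fragment also rose, Itgam by 1.59 (limma adjusted p = 0.0029), Itgb2 by 3.44 (limma adjusted p = 0.000148) and Itgax by 4.47 (limma adjusted p = 5.8e-08). Itgax reached at most 0.741 FPKM on chow, so it passed the filter only through mice on HFD. Cfd, which encodes adipsin, the protease that cleaves factor B to start the alternative pathway, lay between 864 and 2595 FPKM on chow and between 13.2 and 33.9 FPKM on HFD. It fell by 5.80 (standard error 0.26, limma adjusted p = 7.21e-10), and it is also 1 of the 8 adipocyte markers. C2, the convertase component of the classical pathway, fell by 2.88 (standard error 0.50, limma adjusted p = 0.0012). Cfb, the factor B that joins C3b in the convertase, had a difference of 0.31 (standard error 0.23, limma adjusted p = 0.513). C2 and Cfb are given 1 shared interval on chromosome 17, from 34856374 to 34896867. How fragments were divided between them is not known here.

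Cell markers changed along with C3 and Cp. Of 8 macrophage markers 7 rose (Lyz2, C1qa, Cd68, Mrc1, Trem2, Adgre1 and Itgax, but not Csf1r), and their sum was between 183.4 and 252.5 FPKM on chow and between 441.6 and 1032 FPKM on HFD. Trem2 was above 0 in 3 mice on chow and Itgax in 2, so both passed the filter only through mice on HFD. The calls of Trem2 and Itgax are therefore no independent results. Of 8 adipocyte markers 5 fell (Fabp4, Adipoq, Cfd, Plin1 and Lipe) and Lep rose, and their sum was between 8836 and 25660 FPKM on chow and between 4643 and 10580 FPKM on HFD. The sum of 8 mesothelial markers was between 14.3 and 39.9 FPKM on chow and between 1.65 and 30.0 FPKM on HFD, and 1 of 7 tested markers, Lrrn4, fell. Lrrn4 was listed at 0 in every mouse on HFD and passed the filter only through mice on chow. Its call is therefore no independent result. After group means were removed, C3 correlated with the adipocyte sum at -0.77 and with the macrophage sum at -0.20 over the 16 mice, and Cp at -0.17 and -0.13, on values that share the FPKM scaling. The adipocyte sum was mostly Fabp4, with a mean of 8054 FPKM against 827.8 FPKM for Adipoq, the next highest of these markers. The part of cell composition in the C3 and Cp differences was not tested.

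**Figure D4:**
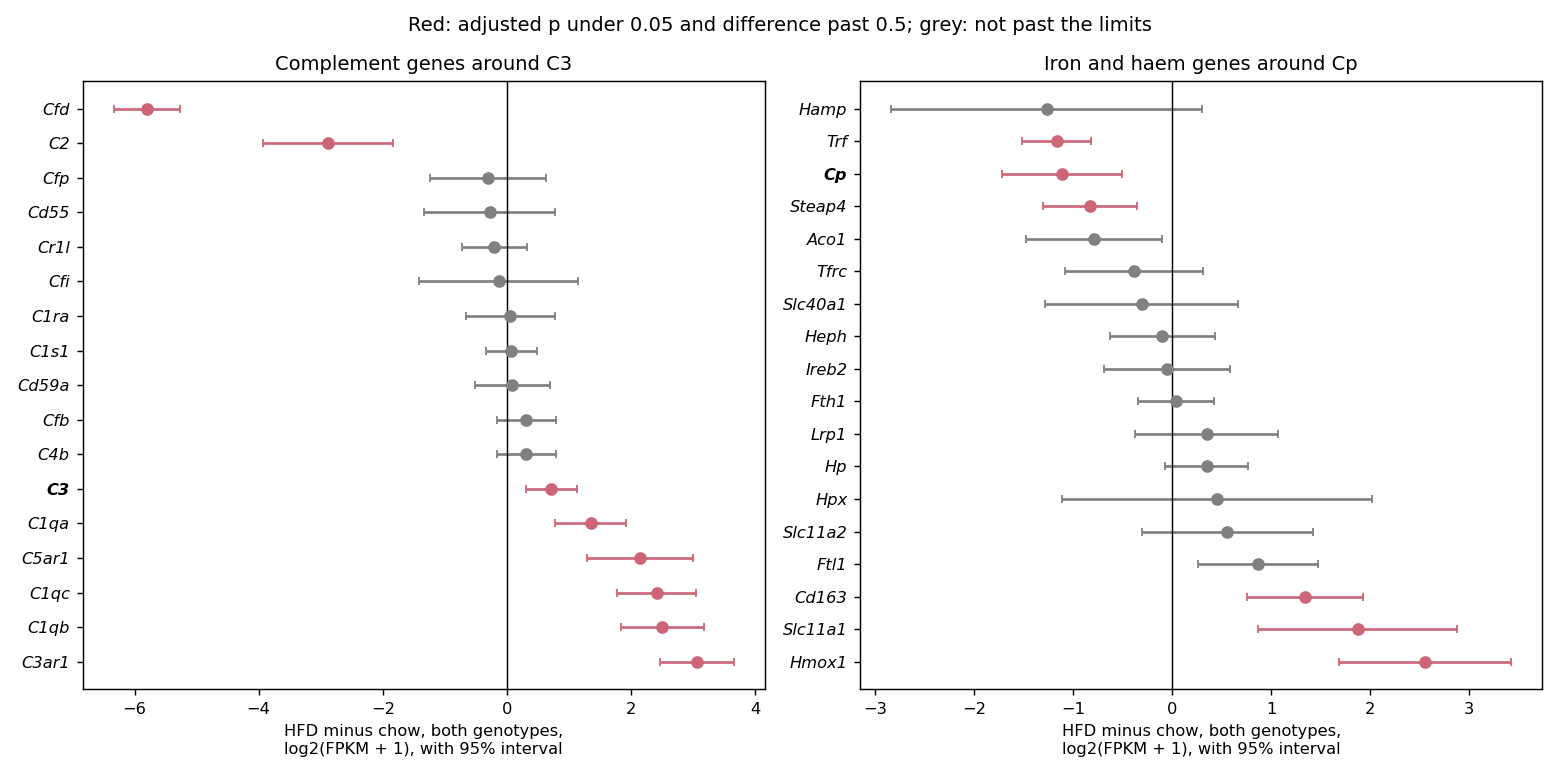
Difference in log2(FPKM + 1) between HFD and chow over both genotypes for 17 complement genes (left) and 18 iron and haem genes (right), with 95% intervals and red for genes past the limits. C3 (0.72) lies among the rising complement genes far from Cfd (-5.80), and Cp (-1.12) lies beside Trf (-1.17) and Steap4 (-0.83) among the falling iron genes.

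The iron genes around Cp moved in both directions with diet. Of 18 tested genes of iron and haem handling, 3 rose on HFD over both genotypes (Hmox1, Slc11a1 and Cd163) and 3 fell (Cp, Trf and Steap4). The other 12 were not called, and the median difference over the 18 was -0.009, against 0.009 over all genes. Trf, the transferrin that receives iron once ceruloplasmin has oxidized it, was between 282.2 and 454.6 FPKM on chow and between 112.2 and 245.9 FPKM on HFD, and fell by 1.17 (standard error 0.17, limma adjusted p = 0.000206). Steap4, a metalloreductase of adipocytes, fell by 0.83 (standard error 0.23, limma adjusted p = 0.0316). Slc11a1, an iron transporter of phagosomes, rose by 1.87 (standard error 0.47, limma adjusted p = 0.0208). Slc11a1 and Hmox1 were each above 0 in only 3 mice on chow, so both passed the filter only through mice on HFD. Their calls are therefore no independent results. Heph, the membrane-bound relative of ceruloplasmin, had a difference of -0.10 (standard error 0.25, limma adjusted p = 0.893), and Slc40a1, the iron exporter ferroportin that works with them, had -0.31 (standard error 0.46, limma adjusted p = 0.803).

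Among 40 other acute-phase genes, 36 were listed and 30 tested, and 1, Serpina1e, was called between diets over both genotypes, with a fall of 2.97 (standard error 0.86, limma adjusted p = 0.0437). The liver genes Fga, Fgb and Fgg had medians of 10.5, 8.92 and 7.64 FPKM on chow and 1.20, 3.07 and 4.04 FPKM on HFD, and none passed. Lrg1, a leucine-rich glycoprotein also made outside the liver, had a median of 41.9 FPKM on chow and 17.0 FPKM on HFD (limma adjusted p = 0.129). Among close relatives of the members, Orm2 and Orm3, whose coding bases are 89.9% and 86.0% identical to those of Orm1, reached at most 4.68 and 12.5 FPKM, and Serpina3c, 85.0% identical to Serpina3n, was between 7.62 and 23.5 FPKM.

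Of the inducing cytokines, Il6 and Tnf were not tested and reached at most 1.16 and 2.70 FPKM, and Il1b was not in the table. Of 27 tested inducers and signalling genes, 2 rose (Il1rn and Tnfrsf1b) and 1 fell (Cebpa) over both genotypes. Il1rn, the natural antagonist of the interleukin-1 receptor, rose by 2.96 (standard error 0.40, limma adjusted p = 0.0001215), from at most 1.69 FPKM on chow to between 2.42 and 15.8 FPKM on HFD. Only 2 mice on chow had Il1rn above 0, so the gene passed the filter only through mice on HFD. Its call is therefore no independent result. Cebpa, a C/EBP factor of mature adipocytes, fell by 0.81 (standard error 0.21, limma adjusted p = 0.0261). Stat3 (-0.12, limma adjusted p = 0.913), Rela (-0.11, limma adjusted p = 0.930), Cebpb (1.07, limma adjusted p = 0.415) and Cebpd (-0.34, limma adjusted p = 0.387) did not pass. Among 23 tested receptors and partners of the members, 8 rose and none fell over both genotypes, and they include the C3 receptors and integrins named above, Cd163, Hmox1 and Ctsb. Of these, Itgax and Hmox1 passed the filter only through mice on HFD. Mmp9, a matrix protease that lipocalin 2 binds, was at 1.21, 1.15, 3.88 and 1.19 FPKM in the ASKO mice on chow and listed at 0 in the other 12 mice. Mmp9 thus passed the filter only through the ASKO mice on chow. Its call as lower on HFD in ASKO mice (limma adjusted p = 0.0136) is therefore no independent result. Over both genotypes it was not called (limma adjusted p = 0.0538). Cd14 and Tlr4, which receive lipopolysaccharide from Lbp, had differences of 1.18 (limma adjusted p = 0.370) and 0.19 (limma adjusted p = 0.884).

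The 250 bases before the annotated start of the called members are printed here as background to these factors, from RefSeq on GRCm38.p6 and read in the direction of the gene. Letters of the motifs searched on both strands are in capitals: GGG, any 2 bases and TTTCC for NF-kappaB, TTGCNNAA for C/EBP, TTCNNNGAA for STAT3 and TATAAA for the TATA box.
C3, minus strand, chr17:57228137-57228386: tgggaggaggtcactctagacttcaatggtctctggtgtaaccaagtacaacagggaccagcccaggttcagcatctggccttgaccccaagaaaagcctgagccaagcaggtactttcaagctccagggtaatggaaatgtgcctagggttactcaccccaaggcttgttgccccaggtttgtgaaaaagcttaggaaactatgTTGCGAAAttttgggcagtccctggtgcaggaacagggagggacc
Cp, plus strand, chr3:19956804-19957053: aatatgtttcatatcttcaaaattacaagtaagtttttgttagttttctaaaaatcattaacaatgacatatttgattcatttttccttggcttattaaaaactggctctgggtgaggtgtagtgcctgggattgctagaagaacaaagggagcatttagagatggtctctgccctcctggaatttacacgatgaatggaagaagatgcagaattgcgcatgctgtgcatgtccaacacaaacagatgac
The C3 window holds 1 C/EBP match, at 45 to 38 bases before the start, and the Cp window holds none of the 4 motifs. Windows were given for 7 of the 10 members. A C/EBP match lay in a window of 6 of them (C3, Lcn2, Saa1, Saa2, Saa3 and, in the window of a second annotated start, Cp), against 9.56% of 32851 windows of all genes. The NF-kappaB letters lay in 1 of the 7 (Serpina3n), against 1.41% of windows, and the STAT3 letters in none, against 7.02%. The TATA letters lay in 1 (Cp, second start), against 12.4%. Members were counted by gene over all their windows and the shares by single window, so the measures differ and no enrichment is read from them. Saa1 and Saa2, which are close relatives, hold the same letters TTGCACAA from 182 and 183 bases before the start. These matches are therefore not independent. Matches are letters only and were not tested as sites.

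Correlations between the members from mouse to mouse were low. After group means were removed, the Pearson correlations between pairs of the 8 tested genes over 16 mice ran from -0.50 (Orm1 and C3) to 0.42 (C3 and Cp). For each tested gene, the most similar genes among 3920 tested genes with a mean of at least 10 FPKM were named in the same way. For Saa2 these were Ambp (0.87), Fga (0.83) and Ahsg (0.81), which encode plasma proteins of the liver. For Orm1 they were Serpinb6a (0.94), Gm8430 (0.89) and Sod1 (0.88), and for C3 Gm13999 (0.91), Ccdc167 (0.90) and Prkag2os2 (0.88). For Lbp they were Taco1os (0.92), Akr1b8 (0.85) and Sdf4 (0.85), for Serpina3n Prkag1 (0.82), Dnaja2 (0.82) and Gm12031 (0.77), and for Saa3 Nars (0.82), Gm13703 (0.79) and Snrpert (0.79). Hp was nearest to Eif4a-ps4 (0.81), Rcn3 (0.77) and Gm9134 (0.75), and Cp to Adh1 (0.80), Insl3 (0.73) and Ttc1 (0.72). These are the highest of 3920 correlations for each gene over 16 points and are given as a description.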

How the data were processed

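The deposited values are FPKM per gene and mouse, computed by the authors with Cufflinks from STAR alignments (mm10, GENCODE annotation) of reads trimmed by TrimGalore. The library normalization of Cufflinks, the GENCODE release and the use of strand are not given in the sources used here. No batch is labelled. Of the identifiers, 99.6% matched the reference names. Date-like symbols (22) were repaired, and 20 repeated symbols were reduced to the entry of highest mean.

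Values were tested as log2(FPKM + 1) with limma 3.58.1 in R 4.3.3, with all 16 mice in one fit, an intensity trend and Benjamini-Hochberg adjustment within each of 6 comparisons. Genes needed at least 1 FPKM in at least 4 mice. The procedure was tested on simulated data. Mboat7 was compared with exact permutation tests. FPKM sums per mouse ran from 606407 to 982016, and the precision of low genes is set by whole fragments. Python 3.11.15 served for tables (pandas 2.3.3) and plots (matplotlib 3.10.9).

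The 10 genes, the other gene lists and the motifs were chosen with earlier results of these data known. Named genes were the 10 members, Mboat7, listed genes past the limits in a comparison, otherwise 2 to 4 of highest mean as examples, receptors and ligands of the members, and for each tested member the 3 most correlated genes of at least 10 FPKM. Further listed genes (fibrinogens, Lrg1, close relatives of members, C/EBP factors, Stat3, Rela, Cfb, Heph and Slc40a1) were named for their roles after their values were seen. Alternatives were other pseudocounts, filters, scalings, fits and left-out mice. Some items are not reported here.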

Additional observations from a re-analysis of the deposited data

Results flagged for a closer look

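In 131 groups of 4 mice with any spread (35 genes), 17 had a mouse whose distance to the nearest of the others exceeded Dixon's 95% limit, where chance flags about 1 in 20. In 9 of them the other 3 mice were listed at 0. Such a group always exceeds the limit, so the rate of 1 in 20 does not hold for it. No excess of outlying mice was shown.

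Mboat7 ASKO mouse 1 on HFD stood apart for 6 genes. It had 30.0 FPKM of Saa1, 15.1 FPKM of Saa2 and 3.75 FPKM of Lcn2, with the other mice of its group listed at 0. It had 610.2 FPKM of Hp (others 286.5 to 305.2 FPKM) and 58.1 FPKM of Orm1 (others 23.4 to 26.5 FPKM). It also had 225.4 FPKM of Alb (others 0 to 23.5 FPKM).

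Mboat7 ASKO mouse 0 on chow had 216.7 FPKM of Alb (others 5.15 to 18.9 FPKM) and 5.56 FPKM of C2 (others 11.2 to 11.8 FPKM). Lcn2 was at 4.32 FPKM in control mouse 3 on chow, with the others at 0. On HFD, C2 was at 9.62 FPKM in control mouse 0 (others 0 to 1.39 FPKM), and Serpina1e was at 11.99 FPKM in control mouse 1 with the others at 0. On HFD, Mboat7 ASKO mouse 0 had 9.05 FPKM of C5ar1 (others 14.4 to 14.9 FPKM), and Mboat7 ASKO mouse 2 had 10.8 FPKM of Lrg1 (others 16.9 to 17.3 FPKM). On chow, Il1rn was at 1.69 FPKM in control mouse 1 and at 1.51 FPKM in Mboat7 ASKO mouse 1, and Itgax at 0.723 FPKM in control mouse 0 and at 0.741 FPKM in Mboat7 ASKO mouse 1, with the others at 0.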

How the results depend on the processing

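Depth limits most the Saa genes, Lcn2 and Mboat7, whose values stand for a few fragments at most. It also limits low values of other members. Orm1 stood at an estimated 1.83 fragments in control mouse 1 on HFD. Lbp stood at 1.83 in Mboat7 ASKO mouse 0 on chow, and Serpina3n at 4.25 in control mouse 3 on HFD. Cp stood at 5.82 in Mboat7 ASKO mouse 0 on HFD. The 4 mice per group limit every gene. Over all alternatives, 1230 of 1280 recomputed member differences did not turn sign, and 50 in 14 of 48 results did. The calls of C3 and Cp were the only member calls that changed. Unless a cause is given, it was not tested.

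Counts of called genes moved by over 1.5 times as follows. When each fit held just the 2 groups of its comparison, so fewer mice, diet called 255 genes in control mice and 265 in ASKO mice, and genotype on HFD called 0. Genotype called 2 genes on HFD and 2 on chow without a filter, and 0 and 0 with a filter of 5 FPKM. Quantile normalization gave 0 for genotype on HFD, and robust estimation gave 0 for genotype on chow. Without the 5 mice with Alb at 100 FPKM or more, a choice made after seeing the data, diet called 82 genes in control mice, 204 in ASKO mice and 453 over both, genotype 6 on HFD and 0 on chow, and no member (0) was called. Without the intensity trend 1 member was called for diet over both genotypes, since C3 was lost (limma adjusted p = 0.0716).

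Mice with the same replicate number were not linked by the labels, and their deviations did not move together (24 pairs, correlations from -0.187 to 0.153, 1 over 0.1). With a replicate block, genotype called 0 genes on HFD and 0 on chow, and 1 member was called for diet over both genotypes, C3 being lost (limma adjusted p = 0.0534).

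With single mice left out, diet called 255 to 421 genes in control mice, 265 to 493 in ASKO mice and 821 to 1022 over both, genotype 0 to 3 on HFD and 0 to 4 on chow, and the interaction 0 to 1, while 0 to 2 members were called for diet over both genotypes. Differences that turned sign then ranged from -1.57 to 0.23 (Saa3), -0.75 to 0.31 (Orm1) and -0.13 to 0.0798 (C3) for genotype on HFD. For genotype on chow they ranged from -0.83 to 0.091 (Orm1), -0.26 to 0.28 (Lbp) and -0.13 to 0.27 (Cp), and for diet from -0.57 to 0.58 (Saa2, control mice), -0.29 to 0.14 (Hp, ASKO mice) and -0.005022 to 0.53 (Serpina3n, ASKO mice). For the interaction they ranged from -0.006328 to 1.57 (Saa2), -0.30 to 0.75 (Orm1) and -0.12 to 0.41 (Lbp).

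Quantile normalization, median-ratio scaling and scaling without the 10 highest genes turned the diet difference of Saa2 in control mice (-0.01706, -0.003561 and -0.04001), that of Hp in ASKO mice (0.21, 0.10 and 0.19) and the genotype difference of C3 on HFD (0.0416, 0.0811 and 0.15). The last scaling also turned Cp for genotype on chow (-0.0802). These scalings moved the median of all genes by over 0.1 only for diet in ASKO mice (0.03 to 0.17), genotype on HFD (0.02 to 0.14) and the interaction (0.04 to 0.25), each without the 10 highest genes. Without the Alb-high mice, sign turned for Saa2 (diet, -1.14 in control mice and -0.57 over both), for genotype on chow in Orm1 (0.0205), Lbp (0.20) and Cp (-0.26), for C3 on HFD (0.07005), and for the interaction in Orm1 (-1.10) and C3 (0.0285).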
